A study of Caenorhabditis elegans with 4 samples.

Results

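The genes of heterochromatin protein 1 (HP1) and of H3K9 methylation are themselves possible binding sites of HPL-2, and 9 of them were examined in HPL-2 ChIP-seq data from *Caenorhabditis elegans* larvae. The 9 genes were listed by name and found by symbol in a RefSeq gene table, where they stand among 19971 protein-coding genes of the nuclear chromosomes. They are *hpl-1*, *hpl-2*, *cec-4*, *met-2*, *set-25*, *set-32*, *lin-65*, *lin-61* and *lin-13*. The series holds 4 libraries. In 2 of them chromatin was precipitated with SDQ2340, a rabbit polyclonal antibody to HPL-2, and the other 2 are inputs, sequenced without precipitation. All came from wild-type N2 worms at the L3 stage, cultured as a mixed population of males and hermaphrodites at 20 °C and crosslinked with EGS and then with EGS plus formaldehyde. What was analysed is 3 lists of peaks, called by the authors with MACS. They are the lists of ChIP replicate 1 (20533 peaks) and ChIP replicate 2 (16490 peaks), and a series-level list (23530 peaks). Read depth is unknown from peak lists, the input libraries were not analysed here, and absence of a peak does not show absence of binding. Whole worms were used, so a peak cannot be assigned to a tissue.

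HP1 proteins bind methylated H3K9 through a chromodomain and are known for holding chromatin in a compact, silent state. In *C. elegans*, MET-2 deposits the lower methylation states of H3K9 and SET-25 the trimethylated state, while SET-32 is a putative H3K9 methyltransferase known from inherited silencing by small RNAs. LIN-65 is a partner of MET-2. HPL-1, HPL-2, CEC-4 and LIN-61 bind the methylated histone, and LIN-13 is a zinc finger protein that associates with HPL-2.

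The question was whether HPL-2 was bound at the genes of its own pathway. A gene was counted when a peak overlapped its window, the gene body plus 1 kb on each side, by at least 1 bp. In the series-level list, 6 of the 9 genes had a peak, against 47.0% of all protein-coding genes. These were *hpl-2*, *cec-4*, *set-25*, *lin-65*, *lin-61* and *lin-13*. The same 6 genes had a peak in replicate 1, where 42.1% of all genes did. In replicate 2, 4 of the 9 did, against 35.7% of all genes. A peak in both replicate lists was present at *hpl-2*, *set-25*, *lin-65* and *lin-13*, that is at 4 of 9 genes, against 29.0% of all genes. At the same 4 genes a series-level peak was itself found in both replicates (27.3% of all genes). The members' counts were above the shares of all genes in each list, least so in replicate 2 (44.4% against 35.7%). However, 9 genes chosen by name are few, and the differences were not tested. With all genes split by window length into 4 equal classes, *set-25*, *lin-65* and *lin-13* fell in the longest class. So did *met-2*, which had no peak. In that class, 49.4% of all genes had a peak in both replicates. Among genes on chromosome arms, such as *hpl-2*, *set-25* and *lin-65*, 37.5% did, and in chromosome centres, where *lin-13* lies, 14.8% did. The part of length and position in these differences was not tested.

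**Figure D1:**
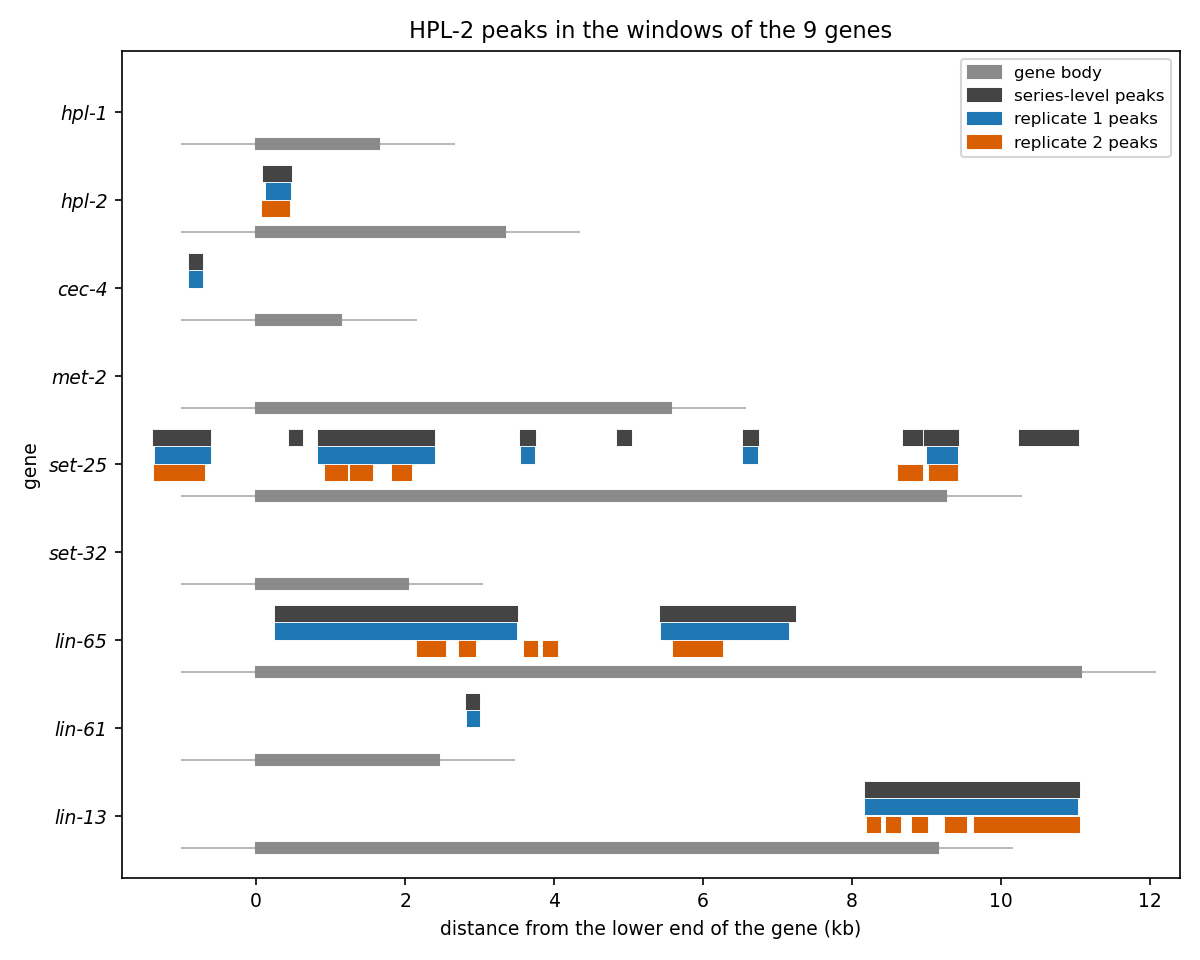
Peaks in the window of each of the 9 genes, by distance in kb from the lower-coordinate end of the gene. Grey bars are gene bodies, grey lines the 1 kb flanks, and coloured bars the peaks of the series-level, replicate 1 and replicate 2 lists at their full width. The windows of *hpl-1*, *met-2* and *set-32* hold no peak in any list, and *lin-65* and *set-25* have the most bases of their windows in peaks in every list.

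The gene table gives no strand, so the ends of a gene are called lower and upper by their coordinates, and starts and stops of transcription are not told apart. Peak positions are on WormBase WS220 and gene positions on WBcel235. Distances between a peak and a gene therefore hold only to about 150 bp.

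The HP1 genes and *cec-4*, the chromodomain genes of the set, differed from each other. At *hpl-2* (CELE_K01G5.2), which encodes the HP1 protein precipitated here, a single peak of 313 to 361 bp was called in every list near the lower end of the gene. It lay on chromosome III at 10752336 to 10752648 in replicate 1 (score 17.1) and at 10752280 to 10752640 in replicate 2 (score 9.65), and the series-level peak ran from 10752306 to 10752659 (score 24.6). These starts are 85 to 141 bp inside the gene, less than the 150 bp to which distances hold. Of the replicate 1 peak, 97.4% of the bases were also in the replicate 2 peak, and 84.5% of the replicate 2 peak was in the replicate 1 peak. The peak was of moderate rank, with 66.7% of replicate 1 peaks and 47.1% of replicate 2 peaks scoring lower. It filled 5.87% and 6.77% of the window in replicates 1 and 2 (mean 6.32 ± 0.64%, SD, n = 2), the smallest difference between replicates of any of the 4 genes bound in both.

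No list had a peak in the window of *hpl-1* (CELE_K08H2.6), the other HP1 gene, on the right arm of the X chromosome. The nearest series-level peak lay 3.2 kb above the gene and was among the weakest of the list (score 2, with 0.57% of peaks lower). In replicate 2 the nearest peak was 8.2 kb away. Within 50 kb of *hpl-1* there were 9 series-level peaks, against a median of 16 over all genes. The HP1 genes therefore differed in all 3 lists, with a peak at *hpl-2* and none at *hpl-1*. Their surroundings differed too. On the right arm of X, 46.3% of genes had a series-level peak and 26% a peak in both replicates. On the right arm of chromosome III, where *hpl-2* lies, the shares were 68.7% and 51.6%. The median series-level window share there was 7.64%, against 6.63% at *hpl-2*. The part of position in the difference between the HP1 genes was not tested.

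*cec-4* (CELE_F32E10.2) encodes a chromodomain protein that anchors H3K9-methylated chromatin at the nuclear periphery. Its window held 1 weak peak in replicate 1, at 7575288 to 7575459 on chromosome IV (score 8.35), and none in replicate 2. The peak was outside *cec-4*, about 0.7 kb below it, and within F32E10.5, a gene whose annotated span contains *cec-4*. The window share was 5.47% in replicate 1 and 0% in replicate 2. The mean was 2.73 ± 3.87% (SD, n = 2), where the SD must exceed the mean because 1 of the 2 values is 0.

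The 3 methyltransferase genes were not alike, since *met-2* and *set-32* had no peak in their windows and *set-25* had many. *met-2* (CELE_R05D3.11), in the centre of chromosome III, had its nearest peak 4.9 kb below the gene in the series-level list and in replicate 1, and 10 kb below it in replicate 2. The closest protein-coding genes on either side, *lmbr-1* and R05D3.12, lie 79 and 81 bp from *met-2* and so partly within its window, which held no peak. *set-32* (CELE_C41G7.4), in the centre of chromosome I, had its nearest peak 2.9 kb below the gene in the series-level list and 5.8 kb above it in replicate 2. Within 50 kb there were 15 series-level peaks around *met-2* and 13 around *set-32*, against a median of 16 over all genes.

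*set-25* (CELE_Y43F4B.3) lies near the right end of chromosome III, at 96.4% of its length, and carried more peaks than any other of the 9 genes. Its window held 9 series-level peaks, 5 peaks of replicate 1 and 6 of replicate 2. Of the 9, 1 peak of 770 bp above the gene had only 0.909% of its bases in the window, less than distances can resolve. Peaks filled 23.5% of the window in replicate 1 and 15.8% in replicate 2, a mean of 19.7 ± 5.5% (SD, n = 2). Of all protein-coding genes, 90.7% had a lower share in replicate 1 and 91.1% in replicate 2. The strongest peak was placed across the upper end of the gene. It reached 149 and 148 bp beyond that end in replicates 1 and 2, less than the 150 bp to which distances hold. The peak ran from 13292850 to 13293239 in replicate 1 (score 49) and from 13292873 to 13293238 in replicate 2 (score 78). Scores below these values were found for 93% of the replicate 1 list and 95.4% of the replicate 2 list.

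A second stretch lay in the gene body, as a peak of 1544 bp in replicate 1 (13284665 to 13286208) and as 3 shorter peaks of 286, 277 and 245 bp in replicate 2. Its upper part overlaps F56A8.8, a gene nested in *set-25*. The third stretch, 13282479 to 13283202 in replicate 1 (score 34) and 13282459 to 13283120 in replicate 2 (score 10.3), lay below *set-25* within *unc-64*, the syntaxin gene, whose annotated end overlaps that of *set-25*. The other series-level peaks of the window were seen in a single replicate or in neither. Of the bases in replicate 1 peaks, 55.4% were also in replicate 2 peaks, and of those in replicate 2 peaks, 82.6% were in replicate 1 peaks.

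**Figure D2:**
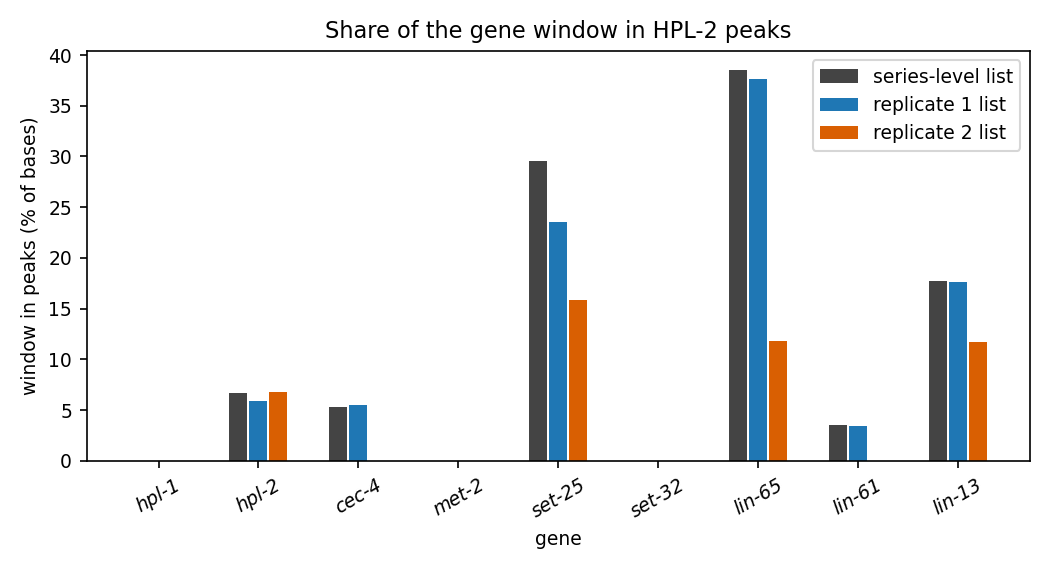
Percent of the bases of each window that lie in peaks, for the 9 genes (x axis) in the series-level, replicate 1 and replicate 2 lists (bars, 1 value per list, no error). *lin-65* has 38.5% in the series-level list and 37.6% in replicate 1 but 11.8% in replicate 2, while *hpl-2* has nearly equal values in both replicates.

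*lin-65* (CELE_Y71G12B.9), which encodes the partner of MET-2, had the highest window share of the 9 genes in replicate 1. The gene lies on the left arm of chromosome I. Replicate 1 had 2 broad peaks inside it, of 3228 bp (1755596 to 1758823, score 18.5) and 1692 bp (1760773 to 1762464, score 27.9). The first was wider than 99.4% of the peaks of its list. Replicate 2 had 5 peaks of 161 to 636 bp in the gene, all with low scores (3.09 to 6.43, with at most 24.2% of the list lower). Peaks filled 37.6% of the window in replicate 1 and 11.8% in replicate 2, a mean of 24.7 ± 18.3% (SD, n = 2). The replicates agreed on the presence of peaks and not on their extent, since 24.4% of the replicate 1 bases were in replicate 2 peaks and 78.3% of the replicate 2 bases were in replicate 1 peaks. No peak reached the genes on either side. The surroundings were dense, with 64 series-level peaks within 50 kb, more than around 96.5% of all genes.

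*lin-13* (CELE_C03B8.4), the gene of the zinc finger partner of HPL-2, carried a broad stretch of 1 or more peaks at and beyond its upper end in every list. In replicate 1 it was 1 peak of 2827 bp, at 7708530 to 7711356 on chromosome III (score 47.8). In replicate 2 the same stretch was called as 5 peaks, of which the last, 1400 bp at 7709985 to 7711384, had by far the highest score (76.1, above 95.2% of the list). That last peak lay outside the gene body, about 0.5 kb above its upper end. The series-level peak of 2870 bp reached 1897 bp beyond the gene and had 973 bp within it, so most of the bound stretch was in the space between *lin-13* and the next gene above, C03B8.3, which it did not reach. It was wider than 99.2% of series-level peaks. Window shares were 17.6% in replicate 1 and 11.7% in replicate 2, a mean of 14.7 ± 4.2% (SD, n = 2). In base pairs, 66.6% of the replicate 1 bases in the window were in replicate 2 peaks, while every base of the replicate 2 peaks there was in the replicate 1 peak. *lin-13* was the only 1 of the 5 genes in chromosome centres with a peak in both replicates.

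*lin-61* (CELE_R06C7.7) encodes a protein with malignant brain tumour (MBT) repeats that binds methylated H3K9. Its window held 1 narrow peak in replicate 1, of 152 bp at 7251666 to 7251817 on chromosome I (score 9.11), and none in replicate 2, whose nearest peak was 3.5 kb away. The replicate 1 peak was placed in the 658 bp between *lin-61* and *bub-1*, a mitotic checkpoint kinase gene. It was 123 bp from *bub-1*, less than the 150 bp to which distances hold. The window share was 3.41% in replicate 1 and 0% in replicate 2. The mean was 1.71 ± 2.41% (SD, n = 2), and here too the SD must exceed the mean because 1 of the 2 values is 0.

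**Figure D3:**
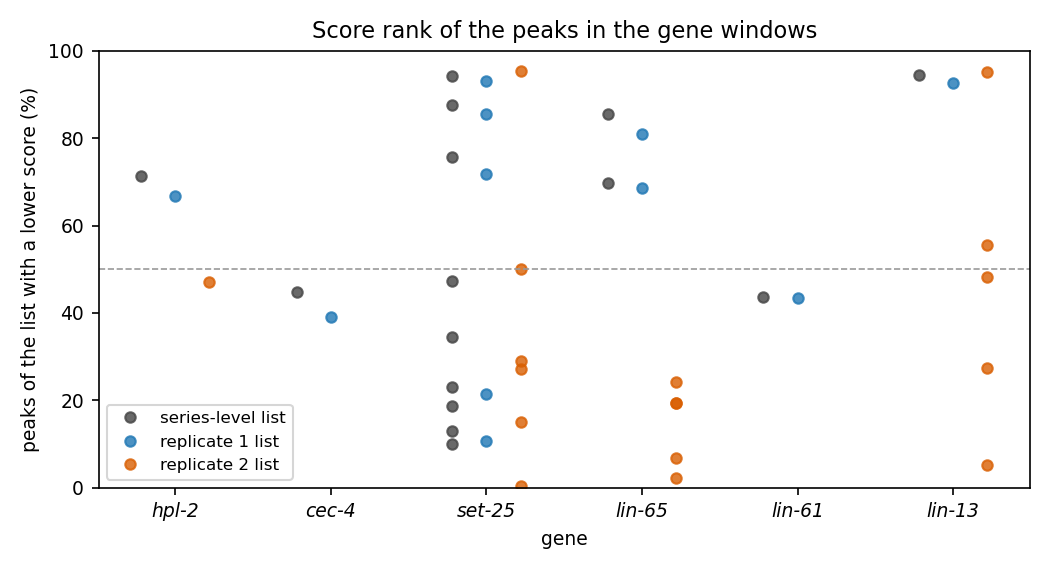
Percent of the peaks in the same list that score lower (y axis), for each peak in the windows of the 6 genes with a peak (x axis), by list. The dashed line marks the middle of the list. *set-25* and *lin-13* each have peaks above 92% in every list. The *lin-65* peaks rank above the middle in replicate 1 and below it in replicate 2. The replicate 1 peaks of *cec-4* and *lin-61* rank below the middle.

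Over all windows, the series-level list had 15 peaks, of which 9 lay inside a gene body, 2 crossed its upper end and 4 lay beside it. Among these 4 is the *set-25* peak with only 0.909% of its bases in the window. Both replicates supported 7 of these 15 peaks, replicate 1 alone supported 5, replicate 2 alone 1, and neither of them 2. The shares of 46.7%, 33.3%, 6.67% and 13.3% were close to those of the whole list (43.5%, 39.1%, 8.16% and 9.23%). By score, 7 of the 15 were at or above the median of the series-level list. In replicate 1, 7 of 11 did so and in replicate 2, 4 of 17. The 17 replicate 2 peaks include the pieces of stretches that replicate 1 had as single peaks.

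A peak within 500 bp of either end of the gene was present in the series-level list at 5 of the 9 genes (*hpl-2*, *set-25*, *lin-65*, *lin-61* and *lin-13*), against 36.2% of all genes. It was present in both replicate lists at 3 genes (*hpl-2*, *set-25* and *lin-13*), against 18.8% of all genes.

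**Figure D4:**
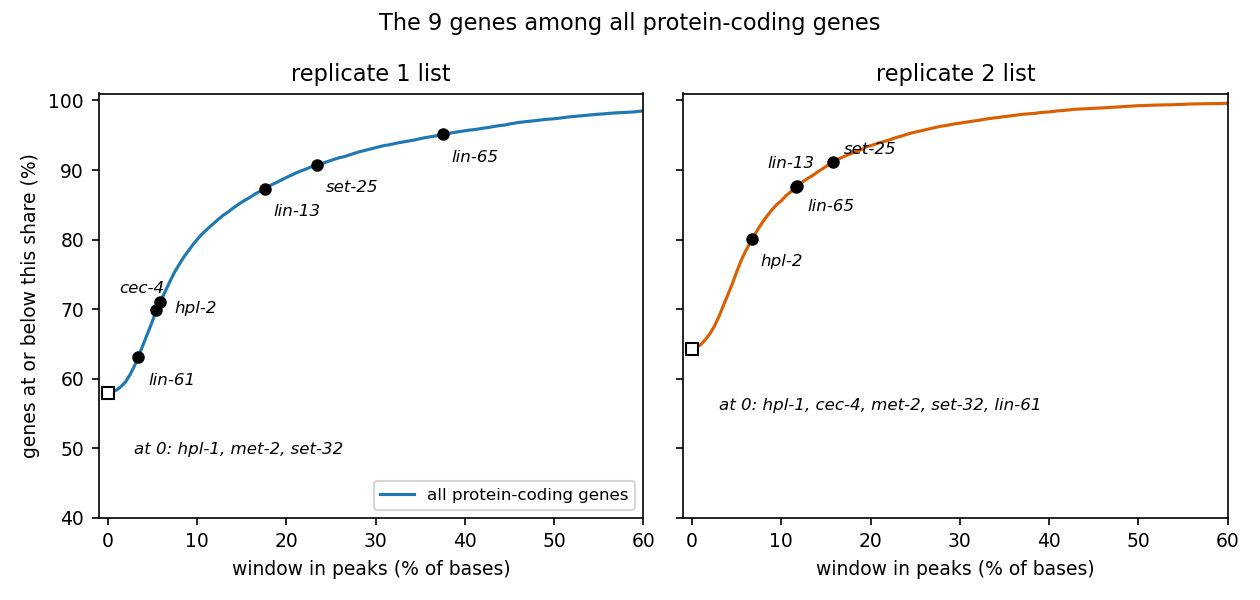
Percent of protein-coding genes (y axis, from 40) whose window has at most the given percent of its bases in peaks (x axis), in replicate 1 and replicate 2. Filled points are the members with a peak and the open square marks those at 0. *lin-65*, *set-25* and *lin-13* lie above 87% of all genes in both replicates.

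The position and length of the genes bear on these counts. The 4 genes on chromosome arms (the outer 2 of 3 equal parts) were *hpl-1*, *hpl-2*, *set-25* and *lin-65*, and 3 of them had a peak in both replicates, against 37.5% of all arm genes. Of the 5 genes in chromosome centres, 3 had a series-level peak and 1 a peak in both replicates, against 34.6% and 14.8% of all centre genes. On the left arm of chromosome I, where *lin-65* lies, 60.3% of genes had a peak in both replicates, and on the right arm of chromosome III, where *hpl-2* and *set-25* lie, 51.6% did. In the centre of chromosome III, around *lin-13* and *met-2*, it was 17.2%. Windows of the 9 genes had a median length of 5336 bp, against 4006 bp over all genes. When all genes were split by window length into 4 equal classes, *met-2*, *set-25*, *lin-65* and *lin-13* fell in the longest class. There, 67.9% of all genes had a series-level peak, against 36.7% to 45.5% in the other classes. A peak in both replicates was present at 49.4% of the genes of the longest class, against 19.4% to 26.4% in the others. The part of chromosome position and gene length in the members' counts was not tested.

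**Figure D5:**
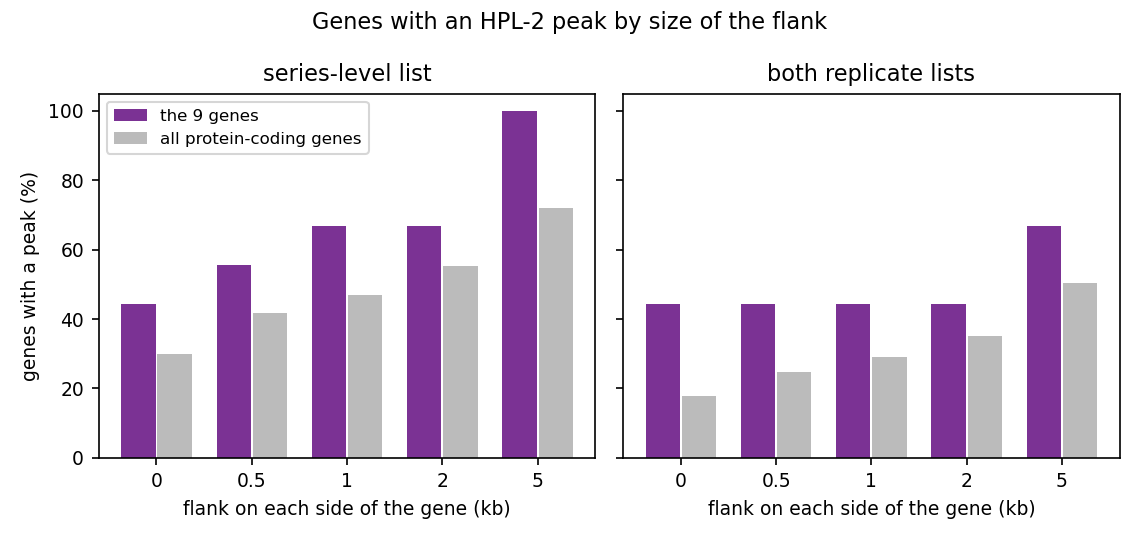
Percent of the 9 genes and of all protein-coding genes with a peak in the series-level list or in both replicate lists (y axes), by the flank added on each side of the gene in kb (x axes). With both replicates required, 4 of the 9 genes have a peak from 0 to 2 kb and 6 at 5 kb, and the shares of all genes run from 17.8% to 50.4%.

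The gene body alone gave 4 genes with a series-level peak, against 30% of all genes, and the same number with a peak in both replicates, against 17.8%. With 5 kb on each side all 9 genes had a series-level peak, as did 71.9% of all genes.

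The same counts were made for 28 further genes, listed as neighbours of the pathway. They were other SET domain and chromodomain genes, the gene of a MET-2 cofactor, and H3K9 demethylase family, nuclear RNAi and nuclear envelope genes. The SET domain and chromodomain genes were listed by domain, not by a shown role in H3K9 methylation. Of the 28, 23 had a series-level peak and 14 a peak in both replicates (47.0% and 29.0% of all genes). Among 7 other SET domain genes 3 had a peak in both replicates (*set-13*, *set-21* and *set-23*), and among 8 other chromodomain genes 5 did (*cec-2*, *cec-5*, *cec-7*, *cec-8* and *mrg-1*). The gene of the MET-2 cofactor ARLE-14 had a peak in the series-level list alone. Of the 3 genes of the H3K9 demethylase family, *jmjd-1.2* and *jmjd-2* had a peak in both replicates and *jmjd-1.1* had none. *jmjd-2* had the highest window share of the 28 in every list, at 72% in replicate 1 and 62.5% in replicate 2. The nuclear envelope gene *emr-1*, which encodes emerin, was second in the series-level list and in replicate 1. Its shares were 45.9% in replicate 1 and 21% in replicate 2. The *emr-1* window is only 2778 bp with its 1 kb flanks, so most of it is flank. Whether peaks lie in the gene or its flanks was not examined for the 28 genes. In replicate 2 *emr-1* was below *cec-2*, which had 44.5% in replicate 1 and 38.6% in replicate 2. It was also below *lem-2*, which had 22.1% and 25.3% in replicates 1 and 2. *lem-2*, the gene of another protein of the inner nuclear membrane, had a peak in both replicates, and the lamin gene *lmn-1* had peaks in replicate 1 alone. Of the 6 nuclear RNAi genes, *nrde-2* and *morc-1* had a peak in both replicates. No series-level peak was found at *set-6*, *cec-1*, *cec-3*, *jmjd-1.1* or *nrde-3*. These 28 genes were not tested as a set, and 21 of them lie on chromosome arms. Of all arm genes, 54.5% had a series-level peak and 37.5% a peak in both replicates.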

How the data were processed

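The titles gave the group of each sample, HPL-2 ChIP or input. Per the labels, reads came from an Illumina sequencer. The submitters' processing notes name BWA, with no version, and ce10. Per the file headers, positions refer to WormBase WS220 and peaks were called by MACS. Not given in the sources used here: the version, threshold and control of MACS, and the making of the series-level list. The score of each peak is deposited by the authors without a stated scale, so it was used only to rank peaks within a list. Other deposited columns used are the start and end of each peak.

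Gene spans were taken from the RefSeq table of WBcel235, which gives no strand. They were set against WS220 peaks unchanged, then with windows widened or narrowed by 150 bp. All 9 members and all 28 further genes matched by symbol. Each window was the gene plus 1 kb on each side, and a list's percent is the share of its bases in peaks. The chromosome length was the largest peak end, and arms and centre are 3 equal parts of it. Gene starts, planned as reference points, were replaced by gene ends. The members and gene lists were chosen with earlier results of these data known. All 9 members are named. Further genes are named when they have no series-level peak, have a peak in both replicates near a gene end, or are among the 2 with the highest window share, and also where a small group is listed. No test was run, because a peak list has no replicate error of its own and 2 ChIP samples allow none. The labels do not say if the 2 replicates are separate cultures, so the SD may be technical. Alternatives covered flanks, build padding, overlap, score and each replicate list. Code (Python 3.11.15, pandas 2.3.3) was tested on simulated peaks.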

Additional observations from a re-analysis of the deposited data

How the results depend on the processing

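Of 37 alternatives over 5 results, 28 kept a count within 1.5 times, or a median or share within the SD of the replicates. This range is wide for 9 genes: with a main count of 6 it takes in every count from 4 to 9, so no rise could leave it. The number of members with a series-level peak ran from 4 to 9, while the share of all genes ran from 27.3% to 71.9%. With 1 replicate list alone the number was 6 in replicate 1 (42.1% of all genes) and 4 in replicate 2 (35.7%). Widening or narrowing the windows by 150 bp left 6 (48.5% and 45.5% of all genes), and 4 in both replicates (29.9% and 27.8%). The number with a peak in both replicates was 4 under each flank up to 2 kb (17.8% to 35% of all genes) and 6 with 5 kb (50.4%). It was 2 for the higher-scoring part of each list, its median and above (17.5% of all genes), and 4 to 6 with a single list. Those single-list counts are the same as given above for 1 replicate list alone. A single list cannot give fewer genes than both together, so no fall was possible there. The median window share was 5.34%, and became 0% with the gene body alone, with peaks scoring at or above the median and with series-level peaks found in both replicates. With a single replicate list it was 0 to 5.47%, the lower value in replicate 2 alone. Wherever it was 0%, at least 5 of the 9 members had no such peak. Members with a peak near a gene end numbered 3 within 250 bp (28.5% of all genes) and 3 when 50% of the peak had to lie there (31.3%). With a single list they numbered 5 in replicate 1 (31.7% of all genes) and 3 in replicate 2 (24.2%). Over all genes of the table, including small RNA genes, 36.99% had a series-level peak. The gene end results and the 5 kb flank were chosen after seeing the data. The planned count of peaks near gene starts was not run, since the table gives no strand. No paired analysis was possible because the inputs have no values here, and only ChIP peak lists were used. Peak lists without read counts limit each statement to peaks above an unknown threshold.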
